A study of Rattus norvegicus with 20 samples.

Results

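The genes described here encode 7 enzymes of cholesterol synthesis, chosen by name from the 39747 genes of the count table: Hmgcs1, Idi1, Fdps, Fdft1, Sqle, Lss and Cyp51. Each name matched 1 row. They were followed in RNA-seq libraries of dorsal root ganglia (DRG) of female Sprague-Dawley rats, with 20 libraries from 14 rats. The rats ate a soybean oil diet (SOD) or a diet in which fish oil replaced most of the soybean oil (FOD), both built on AIN-93G, and cholesterol had been added to the SOD to match the FOD. After 4 weeks of diet the left sciatic nerve received 4 loose chromic gut ligatures (chronic constriction injury, CCI) or was only exposed (sham, CT). Left DRG formed the groups SOD-CT (n = 4), SOD-CCI (n = 3), FOD-CT (n = 3) and FOD-CCI (n = 4). The right, contralateral DRG of 3 SOD-CCI and 3 FOD-CCI rats formed the remaining groups, and no contralateral DRG of a sham rat was measured. The sources differ on the time from surgery to collection, so none is given here. Every replicate was a different rat, and the question was whether diet, injury or their combination moved these genes.

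Cells build cholesterol from acetyl-CoA through the mevalonate pathway, which ends in farnesyl diphosphate, and then through squalene and a chain of sterols. When sterols in the endoplasmic reticulum run low, SCAP carries the transcription factor SREBP2 (Srebf2) to the Golgi, where it is cut and released to switch on nearly all genes of the pathway. INSIG proteins hold the complex back when sterols are plentiful. In peripheral nerve, Schwann cells make much of the cholesterol of their myelin themselves, and membrane growth of regenerating axons also draws on cholesterol.

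SREBP acts on promoters together with NF-Y, which binds the CCAAT box. RefSeq promoters (build GRCr8) were at hand for 5 of the 7 genes, and the 250 bases before the start were searched on both strands. The box CCAAT was in 4 of these 5 promoters, against 34% of all 33469 promoters of that length. Hmgcs1, Idi1 and Fdps each held it 2 times, which was so in 9.42% of all promoters. Lss held it 1 time and Cyp51 did not hold it. The GC box GGGCGG was in 4 of the 5 (30.5% of all promoters), with Idi1 the exception. The letters TCACNCCAC, a form of the sterol element, were in 0 of the 5 (0.974% of all), and the E-box CACGTG was also in 0 (5.59% of all). Of the sterol element only this form was searched, so its absence does not show that a promoter lacks the element. No pair of these motifs overlapped in the 5 promoters. The 4 promoters with a CCAAT box are shown 5′ to 3′ in the direction of transcription, each ending at the base before the start; capitals mark CCAAT or its reverse complement ATTGG.

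Hmgcs1, chr2:53382054-53382303, plus strand: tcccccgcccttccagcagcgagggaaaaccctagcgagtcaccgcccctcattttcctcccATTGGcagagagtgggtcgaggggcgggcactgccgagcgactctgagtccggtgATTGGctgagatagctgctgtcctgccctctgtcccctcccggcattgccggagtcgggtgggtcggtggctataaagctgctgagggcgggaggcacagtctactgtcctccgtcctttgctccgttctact
Idi1, chr17:66547525-66547774, minus strand: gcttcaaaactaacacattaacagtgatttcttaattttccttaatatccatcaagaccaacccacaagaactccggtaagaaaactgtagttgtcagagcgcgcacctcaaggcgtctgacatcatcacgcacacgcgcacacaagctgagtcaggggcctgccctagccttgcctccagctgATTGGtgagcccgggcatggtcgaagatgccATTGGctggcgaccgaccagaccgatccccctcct
Fdps, chr2:176804817-176805066, minus strand: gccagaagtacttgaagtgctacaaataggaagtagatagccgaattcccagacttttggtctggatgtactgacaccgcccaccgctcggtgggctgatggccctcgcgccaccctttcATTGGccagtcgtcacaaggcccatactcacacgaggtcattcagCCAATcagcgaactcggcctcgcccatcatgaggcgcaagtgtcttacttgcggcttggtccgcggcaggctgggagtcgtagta
Lss, chr20:12118231-12118480, minus strand: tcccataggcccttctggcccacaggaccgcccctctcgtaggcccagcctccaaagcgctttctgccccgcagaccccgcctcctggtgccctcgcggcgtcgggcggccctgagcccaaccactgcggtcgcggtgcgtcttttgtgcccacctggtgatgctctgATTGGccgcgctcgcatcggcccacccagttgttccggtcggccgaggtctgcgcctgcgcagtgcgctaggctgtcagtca

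The boxes lay 188 to 184 and 133 to 129 bases before the start in Hmgcs1, 66 to 62 and 35 to 31 in Idi1, 130 to 126 and 85 to 81 in Fdps, and 82 to 78 in Lss. A match describes the letters and not a bound site.

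Levels are given as CPM (a gene's count scaled by the library's total count) within a gene, and as the authors' FPKM (scaled also by gene length) between genes. Library totals ran from 22547190 to 54437581 counts. The lowest count of any of the 7 genes was 727 (Lss), with a counting error of 3.7%, so counting error was small beside the spread between rats. In bulk ganglia, fewer cells of a type and less RNA per cell cannot be told apart.

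Some libraries held transcripts of neighbouring tissue. SOD-CT replicate 1 had 125300 CPM on a list of 13 skeletal muscle genes, and FOD-CT replicate 2 had 28390 CPM, while the other 18 libraries had at most 9959 CPM. FOD-CT replicate 1, FOD-CCI replicate 1 and FOD-CCI contralateral replicate 1 had 3038, 2371 and 3751 CPM on a list of 8 spinal cord glia genes, and the other 17 libraries at most 68.4 CPM. FOD-CCI contralateral replicate 1 also had the least signal on a list of 12 sensory neuron genes, 3412 CPM with 2 of the 12 at 0, against 8638 to 36770 CPM elsewhere. In 1 library labelled injured, nerve injury genes were at the level of sham. These were summed on a list of 12 such genes, 1 of them with 2 rows. FOD-CCI replicate 1 had 373.5 CPM with 2 of the 13 rows at 0. This lay within the 235.5 to 754 CPM of the sham libraries and near the 324.9 CPM of its own right ganglion. The other 6 injured left ganglia had 1402 to 3864 CPM. For the comparisons that hold this library, some of the estimates are also given without it. SOD-CT replicate 1 and the 3 libraries with cord glia transcripts had the 4 lowest sums of the 7 cholesterol genes. The sum was 1358 CPM in SOD-CT replicate 1 and 2319 to 2355 CPM in the 3 libraries with cord transcripts, against 2592 to 3149 CPM in the other 16. The part of the foreign transcripts in these lower sums was not tested, and every comparison was also run without the libraries with cord transcripts, and those of left ganglia also without the 2 libraries with the most muscle transcripts.

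**Figure D1:**
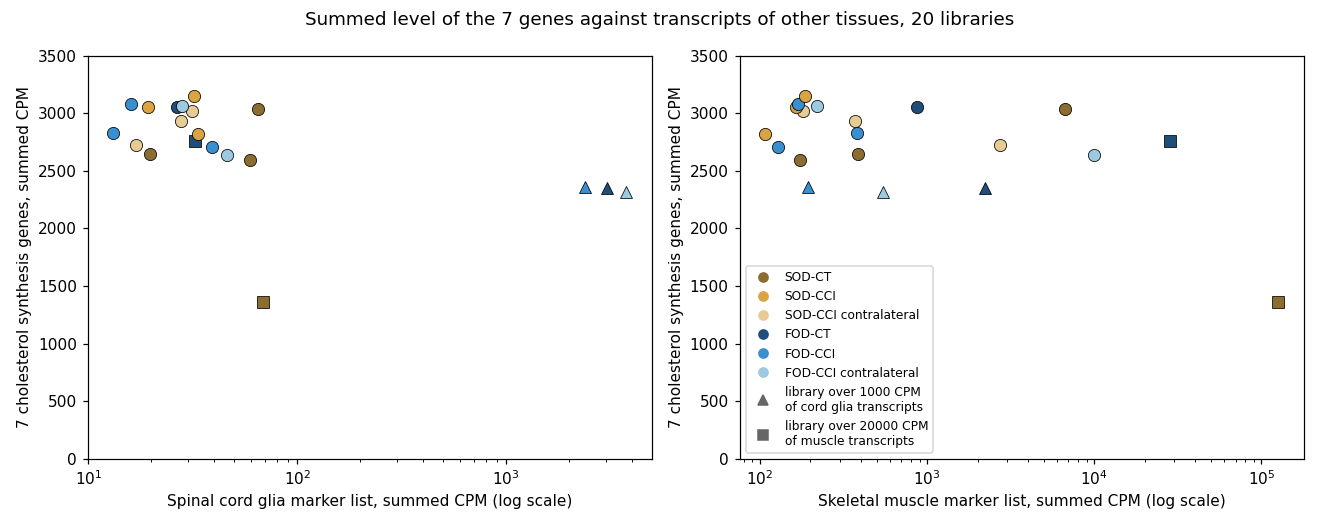
Summed CPM of the 7 cholesterol synthesis genes (vertical axis) against summed CPM of the spinal cord glia list (left) and the skeletal muscle list (right, both log scale); each point is 1 of 20 libraries, coloured by group. The 3 libraries with cord glia transcripts sit at 2319 to 2355 CPM and SOD-CT replicate 1 at 1358 CPM, under the other 16 at 2592 to 3149 CPM.

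Per length, Fdps and Hmgcs1 were the most abundant, with 304 ± 64.3 and 302 ± 38.8 FPKM (mean ± SD, n = 20 libraries). Those 2 genes were not separable, since Fdps was higher in 9 of 20 libraries. Cyp51 followed with 191 ± 28.9 FPKM, Sqle with 108 ± 15.8, Fdft1 with 78.3 ± 7.47, Idi1 with 59.6 ± 14.5 and Lss with 31.5 ± 11.3. Hmgcs1 exceeded Cyp51, Cyp51 exceeded Sqle, Sqle exceeded Fdft1 and Idi1 exceeded Lss in all 20 libraries, and Fdft1 exceeded Idi1 in 17 of 20. The ends of the order never changed: Fdps and Hmgcs1 were the top pair and Lss the lowest in each library. Fdft1 was the steadiest gene, with a coefficient of variation of 13.5% of CPM over the 20 libraries. Lss was the most variable, with 39.6% and a 4.74-fold range. Without SOD-CT replicate 1 these became 9.63% and 36.2%.

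Hmgcs1 encodes the cytosolic synthase that makes HMG-CoA, the entry to the pathway. Its level in SOD-CT was 471.1, 968.8, 1034 and 1111 CPM in replicates 1 to 4. SOD-CCI had 1152, 1135 and 1285 CPM, and the contralateral DRG of the same rats 933.5, 1048 and 1197 CPM. FOD-CT had 899.5, 968.9 and 1115 CPM, FOD-CCI 850.1, 1027, 1120 and 930.9 CPM, and its contralateral DRG 919.2, 1127 and 870.8 CPM. The SOD-CCI libraries were above each SOD-CT and each FOD-CCI library in CPM. After scaling by TMM factors, which correct for the makeup of a library, both pairs of groups overlapped. The factor was 0.712 in SOD-CT replicate 1, where its 471.1 CPM became 661.7 CPM.

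Idi1 encodes the isomerase that makes dimethylallyl diphosphate, the starter unit of farnesyl diphosphate. SOD-CT had 98.98, 134.3, 135.4 and 237.3 CPM, SOD-CCI 146.9, 143.5 and 171.0 CPM, and SOD-CCI contralateral 144.8, 139.0 and 160.4 CPM. On fish oil, FOD-CT had 117.8, 165.1 and 201.7 CPM, FOD-CCI 132.3, 242.4, 221.8 and 183.7 CPM, and FOD-CCI contralateral 191.9, 225.3 and 195.5 CPM. All 3 contralateral FOD libraries were above all 3 contralateral SOD libraries. Among injured left DRG, only FOD-CCI replicate 1, the library with cord glia transcripts and without raised nerve injury genes, was not above the SOD-CCI range. Sham DRG of the 2 diets overlapped widely.

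Fdps encodes farnesyl diphosphate synthase, whose product is shared by cholesterol, dolichol, ubiquinone and protein prenylation. SOD-CT had 195.6, 395.0, 338.6 and 430.5 CPM, SOD-CCI 472.9, 414.7 and 458.8 CPM, and SOD-CCI contralateral 513.8, 319.2 and 359.0 CPM. FOD-CT had 293.7, 374.6 and 435.3 CPM, FOD-CCI 311.3, 441.9, 497.2 and 483.4 CPM, and FOD-CCI contralateral 223.6, 426.9 and 456.8 CPM. The lowest value in every FOD group belonged to the library with cord glia transcripts. Reads from processed copies of Fdps and Idi1 elsewhere in the genome could be assigned to these genes, so their levels carry that uncertainty.

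Fdft1 encodes squalene synthase, the first step committed to sterols. SOD-CT had 149.2, 221.9, 236.7 and 255.1 CPM, SOD-CCI 272.9, 255.2 and 262.0 CPM, and SOD-CCI contralateral 282.2, 288.2 and 283.0 CPM. FOD-CT had 277.3, 247.0 and 297.5 CPM, FOD-CCI 246.1, 208.4, 272.0 and 251.3 CPM, and FOD-CCI contralateral 236.2, 262.3 and 219.3 CPM. The SOD-CCI contralateral libraries stood close together and above both the injured side and the contralateral FOD libraries, also after TMM scaling. SOD-CCI was above SOD-CT in CPM by a margin of under 1 CPM, and the groups overlapped after TMM scaling.

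Sqle encodes squalene epoxidase, a control point of the sterol branch. SOD-CT had 114.6, 227.4, 210.5 and 272.1 CPM, SOD-CCI 268.0, 210.0 and 229.6 CPM, and SOD-CCI contralateral 269.3, 197.7 and 239.4 CPM. FOD-CT had 195.4, 238.6 and 268.6 CPM, FOD-CCI 204.1, 246.0, 248.7 and 218.2 CPM, and FOD-CCI contralateral 183.0, 243.5 and 219.6 CPM. All groups overlapped.

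Lss encodes lanosterol synthase, which closes the sterol rings. SOD-CT had 31.9, 103.8, 115.3 and 65.56 CPM, SOD-CCI 95.53, 132.7 and 151.1 CPM, and SOD-CCI contralateral 47.46, 101.3 and 149.5 CPM. FOD-CT had 83.64, 74.85 and 132.8 CPM, FOD-CCI 48.83, 52.59, 136.3 and 113.8 CPM, and FOD-CCI contralateral 54.29, 66.37 and 93.83 CPM. The scatter within groups was wide, and no pair of groups compared here was separate.

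Cyp51 encodes the lanosterol demethylase. SOD-CT had 296.9, 595.6, 521.9 and 661.4 CPM, SOD-CCI 645.5, 528.8 and 591.8 CPM, and SOD-CCI contralateral 737.0, 633.4 and 634.7 CPM. FOD-CT had 483.5, 690.6 and 605.5 CPM, FOD-CCI 562.3, 613.3, 585.1 and 521.7 CPM, and FOD-CCI contralateral 510.7, 706.8 and 584.2 CPM. The 3 SOD-CCI rats were each lower on the injured than on the contralateral side, although the 2 groups overlapped.

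**Figure D2:**
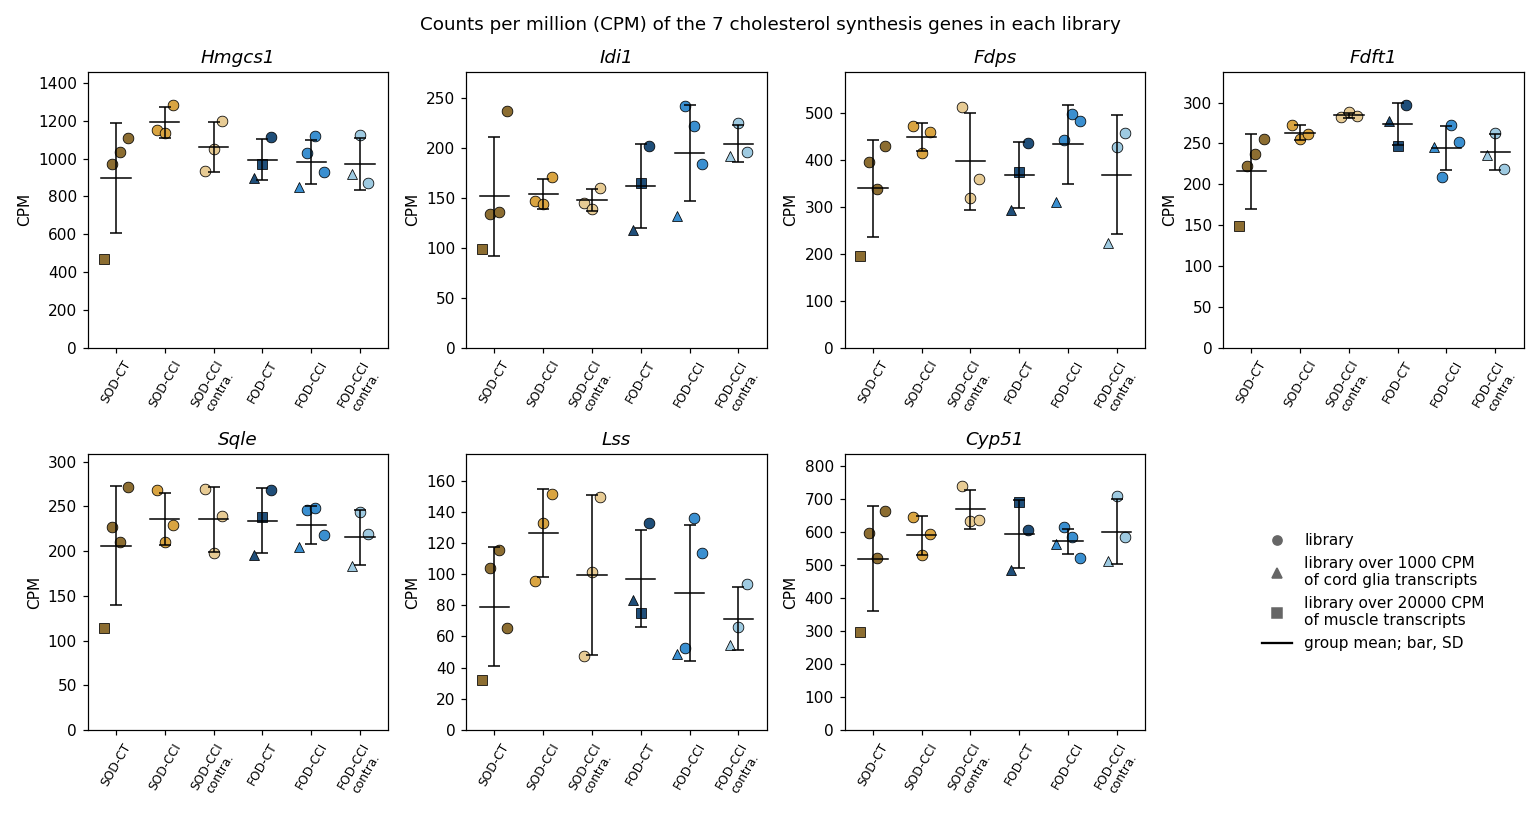
CPM of each gene (vertical axis, from 0) in every library by group; points are libraries, horizontal lines group means and bars SD. Triangles (cord glia transcripts) and the SOD-CT square (muscle transcripts) are often the lowest point of their group, and Lss shows the widest scatter, from 31.9 to 151.1 CPM.

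Differences between groups were tested by edgeR's quasi-likelihood test over all genes with at least 10 counts in 90% of the libraries of a fit, with calls set at 0.1 or less for the p adjusted by Benjamini-Hochberg and at a fold of 1.2 or more. The comparisons share groups and are not independent of each other. None of the 7 genes was called in any of the 8 comparisons, and 0 of the 56 tests had an unadjusted p under 0.05. Standard errors (SE) were derived from the same test, as the size of the log2 fold change over the square root of its F statistic. The 95% confidence intervals were built on them, so that each held 0 follows from these p values. The smallest unadjusted p was 0.0872 (Idi1, contralateral FOD against SOD), and adjusted p values ran from 0.494 to 1. How far this bounds a change differs by gene: 49 of the 56 intervals lay within 1 log2 unit (a 2-fold change) of 0. The intervals of Hmgcs1, Fdps, Fdft1, Sqle and Cyp51 did so in all 8 comparisons, those of Idi1 in 6 and those of Lss in 3.

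In soy oil-fed rats, injury (SOD-CCI against SOD-CT) left the 7 genes with log2 fold changes (log2FC) from -0.14 to 0.58. The estimates were 0.28 ± 0.21 (SE) for Hmgcs1, 0.26 ± 0.23 for Fdps, 0.13 ± 0.16 for Fdft1, 0.06 ± 0.21 for Sqle, 0.04 ± 0.22 for Cyp51 and -0.14 ± 0.29 for Idi1. Lss had the largest estimate, 0.58 ± 0.38, with an interval from -0.23 to 1.39. The median was 0.13, and 6 of 7 estimates were above 0, where the median of all 14484 genes tested was -0.01. Of all genes, 0% were called and 13.8% had an unadjusted p under 0.05, and none of the 7 did. On the nerve injury list, 0 of 11 rows tested were called, although 10 had an unadjusted p under 0.05. Their median log2FC was 2.44, so the lack of a call here was not particular to the 7 genes. Groups did not overlap in CPM for 2 of the 7 genes, against 17.5% of all genes.

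In fish oil-fed rats (FOD-CCI against FOD-CT) the estimates ran from -0.12 to 0.30, with a median of 0.00. Idi1 had 0.30 ± 0.29 and Fdps 0.27 ± 0.23. Hmgcs1, Sqle and Cyp51 were within 0.04 of 0, Lss had -0.10 ± 0.38 and Fdft1 -0.12 ± 0.16. Of all genes, 0% were called, 4.52% had an unadjusted p under 0.05, and 4.59% did not overlap between the groups in CPM. The 7 genes gave 0 of each. On the nerve injury list, 0 of 11 rows tested were called here too, although 8 had an unadjusted p under 0.05. Without FOD-CCI replicate 1, whose nerve injury genes were at the level of sham, Idi1 had 0.45 ± 0.29, Fdps 0.40 ± 0.22, Lss 0.10 ± 0.37, Hmgcs1 0.08 ± 0.22 and Fdft1 -0.13 ± 0.18, and Sqle and Cyp51 were within 0.06 of 0. None of the 7 had an unadjusted p under 0.05 there, while 43 of all genes were called.

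Between diets after injury (FOD-CCI against SOD-CCI), Idi1 was estimated at 0.41 ± 0.29 and Lss at -0.46 ± 0.38, with intervals from -0.21 to 1.03 and from -1.27 to 0.35. Hmgcs1 had -0.21 ± 0.21, and the other 4 genes were within 0.05 of 0. Of all genes 0% were called, 5.4% had an unadjusted p under 0.05, and 15.2% did not overlap in CPM, against 0, 0 and 1 of the 7. Without the libraries with cord transcripts, the estimate of Idi1 was 0.56 ± 0.25 (edgeR, unadjusted p = 0.0481, adjusted p = 0.857). Without FOD-CCI replicate 1 alone it was 0.56 ± 0.29 (edgeR, unadjusted p = 0.0727, adjusted p = 0.976), and Lss had -0.26 ± 0.37.

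Between diets after sham surgery (FOD-CT against SOD-CT), the estimates ran from -0.04 (Idi1) to 0.22 (Lss, ± 0.38), with Fdft1 at 0.21 ± 0.16. Of all genes 0% were called, 3.39% had an unadjusted p under 0.05 and 3.01% did not overlap, and the 7 genes gave 0 of each. The interaction, which asks whether injury moved a gene differently in the 2 diets, was estimated at -0.68 ± 0.53 for Lss and 0.45 ± 0.41 for Idi1. Hmgcs1 had -0.26 ± 0.30 and Fdft1 -0.25 ± 0.23, and the other 3 were within 0.08 of 0. Over all genes 0% were called and 5.01% had an unadjusted p under 0.05. The interval for Lss was from -1.83 to 0.46. Without FOD-CCI replicate 1, the interaction was -0.48 ± 0.51 for Lss and 0.59 ± 0.39 for Idi1.

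**Figure D3:**
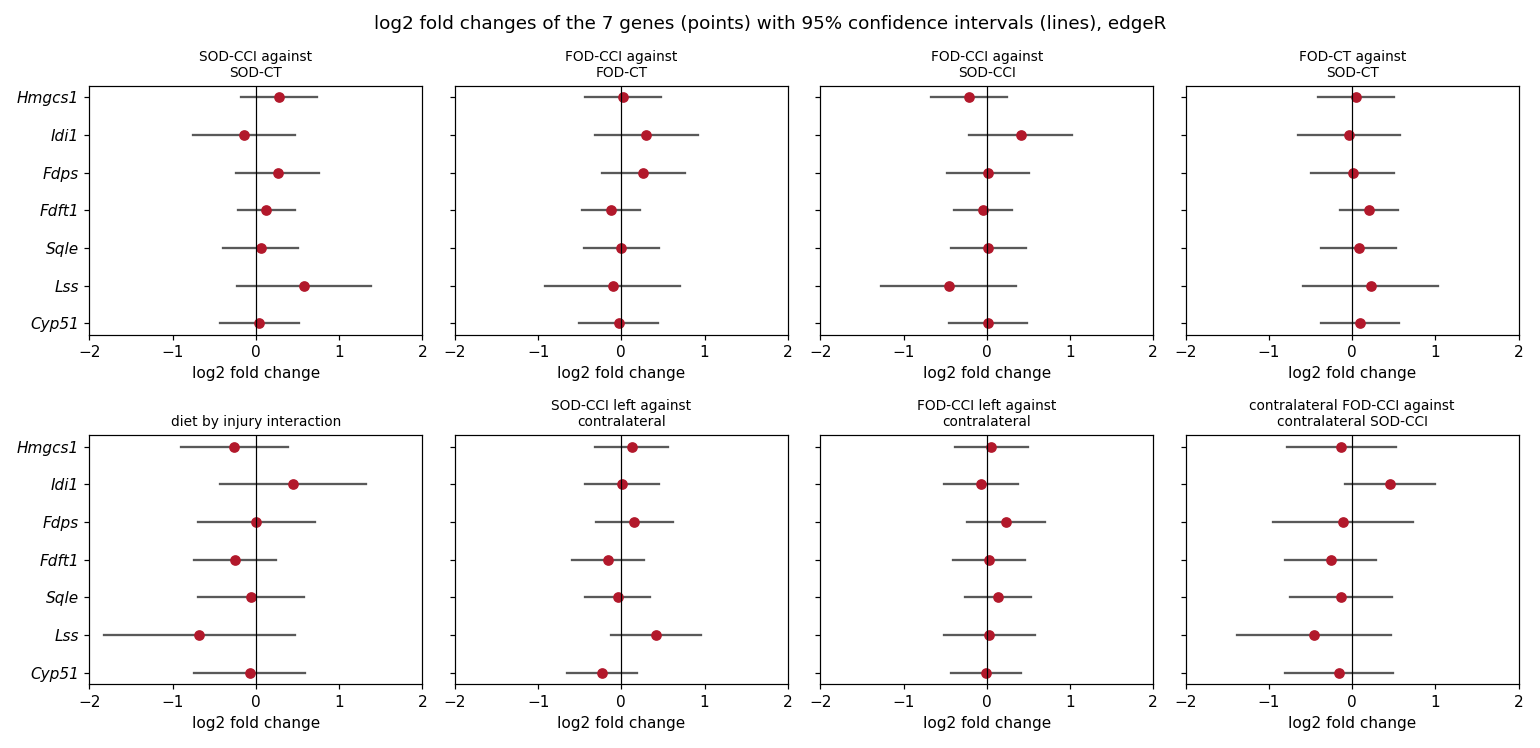
log2 fold change of each gene (horizontal axis, points) with its 95% confidence interval (lines) from edgeR in 8 comparisons. All 56 intervals cross 0, and those of Lss are the widest, reaching -1.83 in the interaction.

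Within rats, the injured left DRG was set against its own right DRG (rat as block), leaving out FOD-CCI replicate 4, which had no contralateral library. In SOD-CCI rats, left over right CPM of Lss was 2.01, 1.31 and 1.01, with a log2FC of 0.42 ± 0.24 (interval -0.12 to 0.96). Hmgcs1 was also higher on the injured side in 3 of 3 rats, by ratios of 1.23, 1.08 and 1.07, and its log2FC was 0.12 ± 0.19. Cyp51 was lower in 3 of 3 (0.876, 0.835 and 0.932), with -0.23 ± 0.19, and Fdft1 was lower in 3 of 3 (0.967, 0.885 and 0.926), with -0.16 ± 0.19. Idi1 was also higher in 3 of 3 (1.01, 1.03 and 1.07), although its log2FC was within 0.01 of 0. The share of all genes with a common direction in 3 of 3 rats is not given here. Such counts, in either diet, therefore have no background to be read against. Of all 14549 genes, 0.131% were called, 8.48% had an unadjusted p under 0.05 and 20.6% did not overlap in CPM, against 0, 0 and 1 of the 7.

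In FOD-CCI rats the side difference had no common direction for most genes. Fdps was higher on the injured side in 3 of 3 rats, by ratios of 1.39, 1.04 and 1.09, with a log2FC of 0.23 ± 0.21. Sqle was higher in 3 of 3 (1.12, 1.01 and 1.13), with 0.13 ± 0.17. Idi1 was 0.689 in replicate 1, whose ganglia held cord transcripts on both sides, and 1.08 and 1.13 in the other two. Lss was 0.899, 0.792 and 1.45, and its log2FC was 0.03 ± 0.24. Without both ganglia of replicate 1, the log2FC of Fdps was 0.08 ± 0.21, of Sqle 0.09 ± 0.20, of Idi1 0.14 ± 0.20 and of Lss 0.10 ± 0.28. Of all genes 0.0137% were called, 6.96% had an unadjusted p under 0.05 and 5.97% did not overlap, and the 7 genes gave 0 of each.

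**Figure D4:**
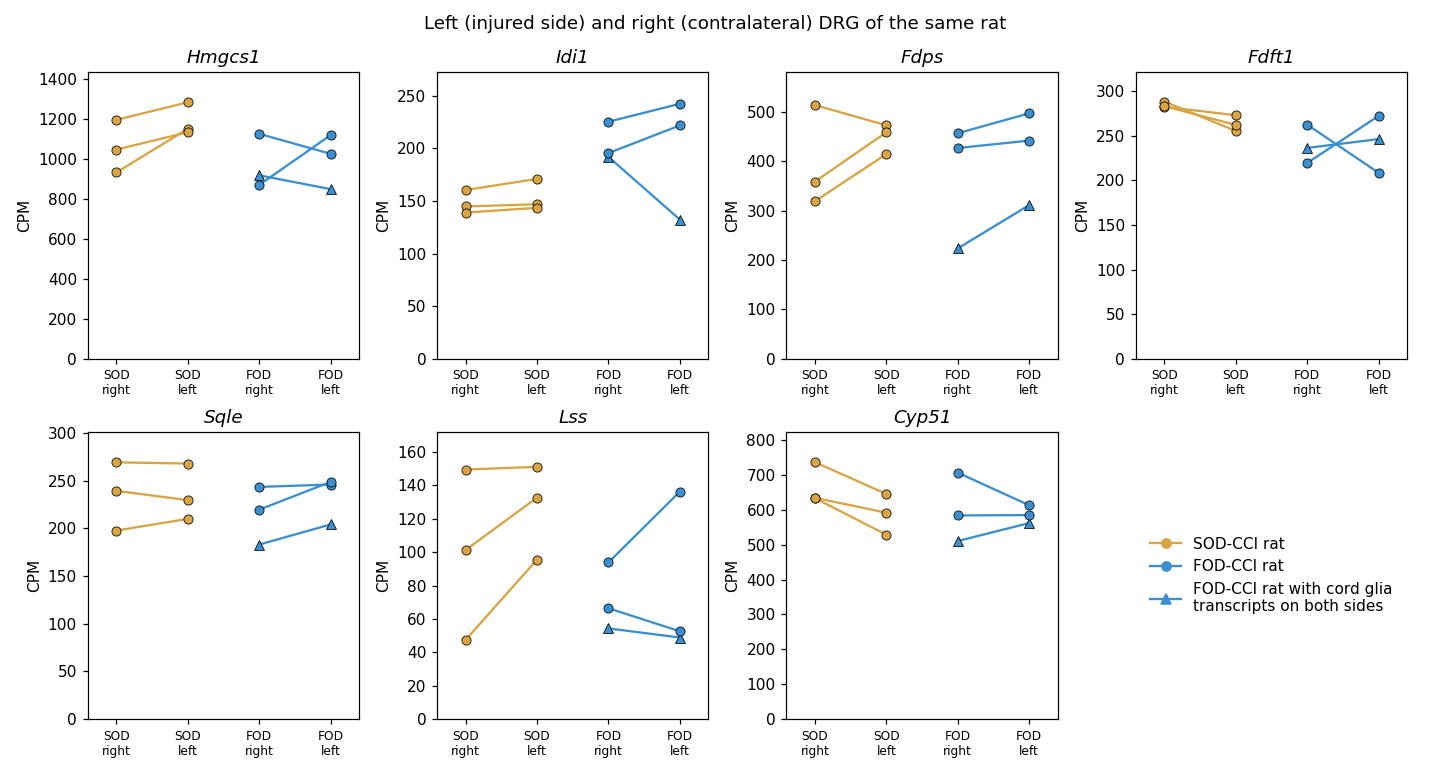
CPM of each gene (vertical axis, from 0) in the right and left DRG of 3 SOD-CCI and 3 FOD-CCI rats, with lines joining the sides of a rat. Cyp51 and Fdft1 slope down in all 3 SOD-CCI rats, while the FOD-CCI lines cross or part.

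Contralateral DRG were compared between diets in 6 libraries. Idi1 had 0.46 ± 0.24 with an interval from -0.08 to 1.00, the estimate furthest from 0 relative to its error among the 56. The other 6 genes were estimated below 0, from -0.11 (Fdps) to -0.46 (Lss, ± 0.41), with a median over the 7 of -0.14. Of all 13590 genes 0% were called, 9.51% had an unadjusted p under 0.05 and 17.3% did not overlap, against 0, 0 and 2 of the 7 (Idi1 and Fdft1). Without FOD-CCI contralateral replicate 1, the library with cord transcripts, the estimate of Idi1 was 0.53 ± 0.22 (edgeR, unadjusted p = 0.0387, adjusted p = 0.432). The left and right ganglia came from the same rats, so the Idi1 values of the 2 sides are not separate evidence.

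How far levels of the 7 genes moved together across libraries differed between pairs. Pearson's r of log2 CPM (TMM scaled, 20 libraries) had a median of 0.477 over the 21 pairs, from -0.101 to 0.85. Sqle and Cyp51 gave 0.85 and Sqle and Fdps 0.826, while Lss had 0.08 with Sqle, -0.09 with Idi1 and -0.10 with Cyp51. Without SOD-CT replicate 1 and the 3 libraries with cord transcripts, a choice made after seeing the data, the median was 0.228 over 16 libraries. Sqle with Cyp51 then gave 0.745 and Sqle with Fdps 0.666, while Lss ran against Cyp51 at -0.692 and had -0.182 with the mean of the 7. The points share depth and tissue makeup, so these are descriptions.

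The genes nearest in pattern were ranked by r with the mean standardised level of the 7 among 14435 genes in 20 libraries. The 10 nearest others were Tspan17 (0.888), Cdr2 (0.846), Acat2 (0.833), Zfyve27 (0.823), Ywhaz (0.821), Glrx (0.815), Mapk3 (0.813), Vasp (0.808), Tuba1a (0.806) and Spp1 (0.803). Acat2, the thiolase that starts the pathway, was the only one of them on the fixed lists of sterol genes. Over the 16 libraries the same 10 genes had r from 0.19 (Mapk3) to 0.715 (Acat2), and Tspan17 had 0.656. Over those 16, the 35 sterol genes of the lists described next had r from -0.615 (Lrp1, an endocytic receptor) to 0.852 (Insig1, a sterol-sensing brake of SREBP). Of the 35, 17 were above 0, and the median was -0.00885, against a median of 0.389 over 20 libraries. That median joins synthesis enzymes with regulators and with genes of uptake and efflux, and single genes differed. Ranked over the 16 among all genes but the 7, Insig1 was at 1, Msmo1, a sterol oxidase (0.756), at 3, Acat2 at 12 and Lrp1 at 14352.

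The rest of the pathway was read from lists of 35 related genes, none of which was called in these fits. For injury on soy oil, 29 of the 35 were estimated above 0, with a median log2FC of 0.32. An unadjusted p under 0.05 was reached by 5 of the 35, 4 upward and 1 downward, a share close to the 13.8% of all genes. Of 7 other enzymes after squalene, all 7 were above 0, with a median of 0.52. Dhcr7, which makes cholesterol from its direct precursor, had 0.83 ± 0.32 (edgeR, adjusted p = 0.306). SOD-CT had 11.9, 65.9, 63.0 and 54.5 CPM of Dhcr7 and SOD-CCI 103.6, 81.8 and 86.5 CPM, with no overlap; the lowest SOD-CT value came from the library with the most muscle transcripts. Of 5 other mevalonate genes, Mvd, the decarboxylase, had 0.45 ± 0.17, Mvk, the first kinase, 0.43 ± 0.20, and Ggps1, which makes geranylgeranyl diphosphate, -0.65 ± 0.27. The 3 adjusted p values were 0.306, 0.355 and 0.324. No regulator of SREBP reached that level; Insig1 had 0.08 ± 0.21 and Srebf2 0.39 ± 0.23.

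Among 8 genes of sterol efflux and storage, Abca1, the pump that loads cholesterol onto apolipoprotein, had the largest estimate of the related genes for injury on soy oil, 2.22 ± 0.62 (edgeR, adjusted p = 0.266). SOD-CT had 9.83, 52.1, 49.9 and 17.5 CPM of Abca1 and SOD-CCI 153.6, 186.0 and 133.6 CPM. The 8 genes of uptake and transport gave no unadjusted p under 0.05 there. Their most abundant members were Npc2, which moves cholesterol out of lysosomes, at 0.19 ± 0.20, and Lrp1, a large endocytic receptor, at -0.01 ± 0.53. In the DESeq2 Wald test, Abca1 was called for injury on soy oil (adjusted p = 0.0256), among 594 genes called there. Over all fits it was called in 3 of 24. It was also called without the cord libraries, where 87 of all genes were called. Without FOD-CCI replicate 1 it was called too (edgeR, adjusted p = 0.0807), among 47 genes. Of 8 macrophage genes, 7 were estimated above 0 for injury on soy oil, with a median log2FC of 0.74 and none at an unadjusted p under 0.05. Their summed level was 87.1 to 540.5 CPM in SOD-CT and 408.1 to 652.8 CPM in SOD-CCI, and their part in the Abca1 values was not tested.

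After injury on fish oil, 23 of the 35 were above 0, with a median of 0.12. An unadjusted p under 0.05 was reached by 4 of the 35, against 4.52% of all genes. These were Abca1 (1.42 ± 0.64), Mvd (0.51 ± 0.17), Pmvk, the second kinase (0.57 ± 0.21), and Srebf1, the SREBP gene tied mostly to fatty acid synthesis (-0.38 ± 0.17), each with an adjusted p of 1. FOD-CCI libraries were widely spread for Abca1, with 11.5, 54.8, 142.8 and 123.2 CPM against 30.5, 29.6 and 35.3 CPM in FOD-CT, and the lowest came from FOD-CCI replicate 1, with cord transcripts and with nerve injury genes at the level of sham. Macrophage genes summed to 201.1 CPM in that library, to 961.5 to 1837 CPM in the other FOD-CCI libraries and to 159.0 to 426.9 CPM in FOD-CT. The part of these in the Abca1 values was not tested. Without that library, Abca1 had 1.78 (edgeR, adjusted p = 0.163), Mvd 0.53, Pmvk 0.67 and Srebf1 -0.40 (edgeR, unadjusted p = 0.055). In Mvd, FOD-CCI had 96.3, 91.1, 117.0 and 100.5 CPM and FOD-CT 72.1, 77.2 and 68.6 CPM, without overlap.

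Within SOD-CCI rats, 4 of the 35 related genes had an unadjusted p under 0.05, 3 higher on the injured side and 1 lower, against 8.48% of all genes. These were Abca1 (1.81 ± 0.52, edgeR adjusted p = 0.325), Lrp8, an apolipoprotein and reelin receptor (1.07 ± 0.30), Mvd (0.42 ± 0.18) and Abcg1, a pump that hands cholesterol to HDL (-0.59 ± 0.19). Macrophage genes also differed between the sides. Of 8, all 8 were higher on the injured side, 7 with an unadjusted p under 0.05, with a median log2FC of 2.16. They summed to 78.0 to 170.2 CPM on the right and 408.1 to 652.8 CPM on the left, and their part was not tested. Within FOD-CCI rats, 3 of the 35 had an unadjusted p under 0.05, against 6.96% of all genes. These were Mvd (0.60 ± 0.18), Lrp8 (0.81 ± 0.30) and Soat1, which esterifies cholesterol for storage (-0.94 ± 0.24). Without both ganglia of replicate 1 these were 0.56, 0.96 and -0.72, and Abca1 had 1.82 (edgeR, unadjusted p = 0.00284, adjusted p = 0.165). Mvd was thus higher on the injured side in both diets, with adjusted p values of 0.564 and 0.571 (edgeR). Within FOD-CCI rats, 7 of the 8 macrophage genes were higher on the injured side, with a median log2FC of 0.49. Of these, 1 had an unadjusted p under 0.05. Over all fits, Abca1 was called within SOD-CCI rats in 4 of 14 and Lrp8 in 3 of 14. Among these were DESeq2, where 472 of all genes were called, and the fit without the cord libraries, where 471 were. The latter is here the same as leaving out FOD-CCI replicate 1. Abca1 was also called with no filter on low counts, among 220 genes.

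Between diets, related genes with an unadjusted p under 0.05 numbered 0 of 35 in FOD-CCI against SOD-CCI (5.4% of all genes), 1 in FOD-CT against SOD-CT (3.39%), 1 in the interaction (5.01%) and 2 in contralateral DRG (9.51%). Abca1 was estimated at -0.86 ± 0.61 in FOD-CCI against SOD-CCI, and at -0.50 without FOD-CCI replicate 1. The macrophage genes went the other way in FOD-CCI against SOD-CCI, with 8 of 8 estimated above 0 and a median log2FC of 0.82. Of these, 1 had an unadjusted p under 0.05. Srebf1 was estimated at 0.42 ± 0.17 in FOD-CT against SOD-CT (adjusted p = 0.965) and had an interaction of -0.69 ± 0.24 (edgeR, adjusted p = 0.894). Its CPM were 51.9, 91.3, 87.0 and 62.2 in SOD-CT, 132.7, 100.1 and 90.5 in FOD-CT, 100.4, 103.0 and 98.5 in SOD-CCI and 83.0, 73.9, 72.4 and 91.2 in FOD-CCI. The highest of the FOD-CT values came from the library with cord transcripts and the lowest of SOD-CT from the library with muscle transcripts. In contralateral DRG, Abca1 was estimated at -0.99 ± 0.38 and Abcg1 at -0.54 ± 0.23 in FOD against SOD (edgeR, adjusted p = 0.521 and 0.522). Macrophage genes again went the other way, with 7 of 7 tested estimated above 0 and a median log2FC of 1.98. Of these, 5 had an unadjusted p under 0.05. The list summed to 78.0 to 170.2 CPM in contralateral SOD and 398.2 to 604.1 CPM in contralateral FOD libraries. Its part in the Abca1 values was not tested.

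Where a list held no gene with an unadjusted p under 0.05, its 2 most abundant genes are given. Insig1, at a mean of 312.8 CPM, stayed within -0.03 to 0.12 log2FC of 0 over all 8 comparisons, with a smallest unadjusted p of 0.567 (edgeR). Srebf2, at 125.6 CPM, had 0.04 to 0.39 in the 5 comparisons without such a regulator. Msmo1, a sterol oxidase after Lss, had -0.28 to 0.29 and Sc5d, a sterol desaturase, -0.24 to 0.18 in the 7 comparisons where no other enzyme after squalene reached that level. For the mevalonate list (4 comparisons), Acat2 had -0.47 to -0.02 and Pmvk -0.19 to 0.25. Lrp1 had -0.40 to 0.61 and Npc2 0.01 to 0.36 in the 6 comparisons without an uptake gene. Apoe, the lipid carrier of glia and macrophages, had -0.41 to 0.48, and Nr1h2, a sterol-sensing nuclear receptor, -0.10 to 0.31 in the 3 without an efflux gene.

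**Figure D5:**
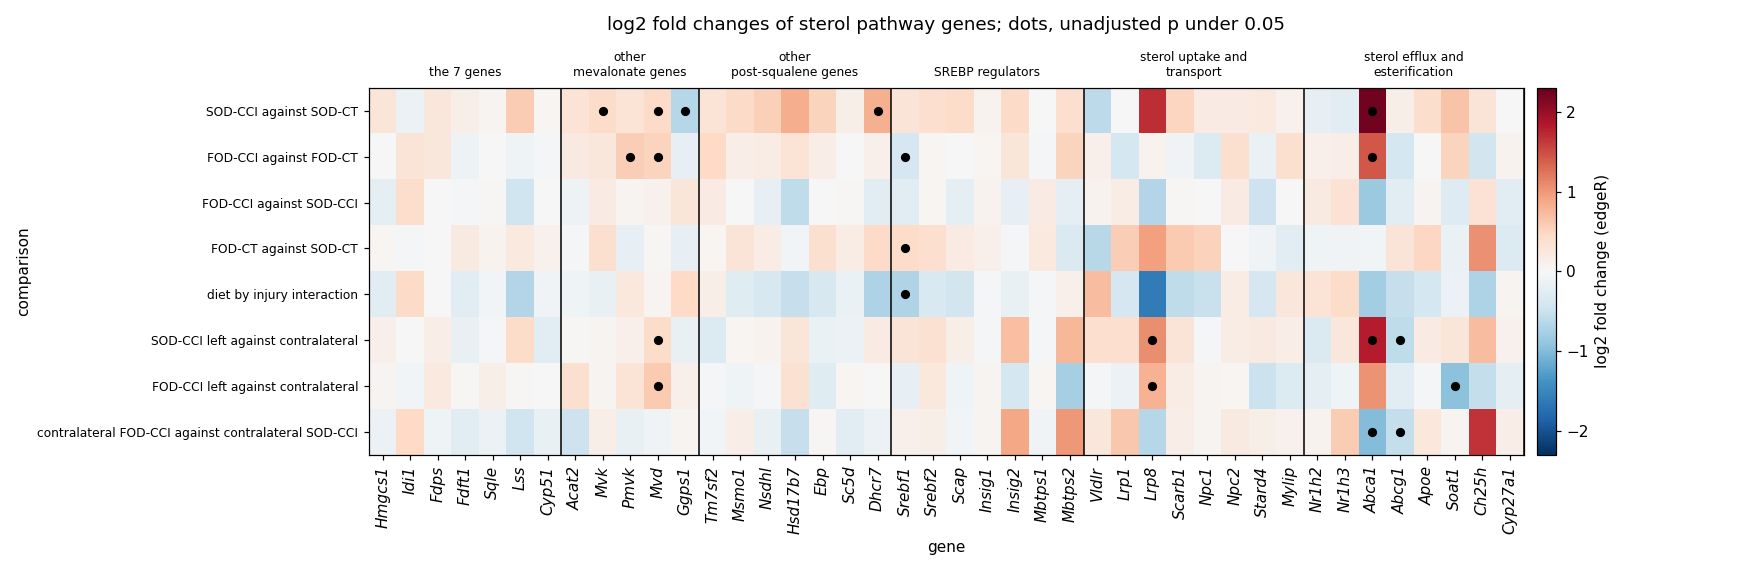
log2 fold change (colour, red above and blue below 0) of the 7 genes and 35 related genes (horizontal axis, grouped by role) in 8 comparisons (vertical axis); dots mark an unadjusted p under 0.05 in edgeR. The 7 genes at the left carry no dot, while Mvd and Abca1 carry a dot in both comparisons of injury with sham, at 0.45 and 2.22 on soy oil and 0.51 and 1.42 on fish oil.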

How the data were processed

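Poly-A RNA of rat DRG was sequenced, and the deposited gene counts were made by the authors with fastp, HISAT2 and featureCounts (1.5.0-p3). Strand and genome build were not given in the sources used here. The deposited FPKM values carried 1 scale per library set by the authors (a count over length and FPKM was constant within a library, to 1e-14 over 9210 genes) and were used only to order genes. CPM, TMM scaling and tests were computed in edgeR 4.0.16 (R 4.3.3), which was also tested on simulated counts. Fits held the 14 left libraries (group means), the 12 paired libraries (rat as block) or the 6 contralateral libraries. Left and right ganglia of a rat deviated together (r 0.103 to 0.433). FOD-CCI and FOD-CT rats of the same number did too (r 0.227 to 0.451), where a block for that number changed no call. The 0.451 was for replicate 1, where both libraries held cord transcripts. Both ganglia of the rat with 0.433 held them too, while SOD-CCI replicate 1, without them, had 0.432. The part of cord transcripts in these r was not tested. Genes at 10 counts or more in 90% of libraries were tested. Alternatives were DESeq2 1.42.0, other scaling, filters, blocks and left-out libraries. All 7 genes were named throughout, as were the 10 genes nearest in pattern. Related genes were named where an unadjusted p was under 0.05 (in a list with none, the 2 of highest mean CPM). For the 16 libraries, the ends of the range and the genes given with a rank were named after their values were seen. The 7 genes and the lists were chosen with earlier results of these data known. Further, 3 genes of those lists are not reported here.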

Additional observations from a re-analysis of the deposited data

How the results depend on the processing

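None of the 7 genes was called in any of 1127 gene fits over the main fits and all alternatives, DESeq2 included. Of these, 5 had an unadjusted p under 0.05, and the largest log2FC was 0.97 in size. Those 5 were Idi1 between diets (without cord libraries in injured DRG, and in contralateral DRG without that cord library or with the gene length trend removed) and Lss in SOD-CCI against SOD-CT. The contralateral fit without the cord library counts 2 times, as the cord setting and as a left-out library. Over all genes, the counts of calls moved more. In SOD-CCI against SOD-CT the 0 calls became 594 in DESeq2 and 87 without the cord libraries. DESeq2 called 21 in FOD-CCI against FOD-CT, 2 in FOD-CCI against SOD-CCI, 42 in the interaction and 202 in contralateral DRG, where 17 were called without the cord library. For SOD-CCI left against right, 19 calls became 472 in DESeq2, 220 with no filter, 471 without cord libraries and 0 without the rat as block. For FOD-CCI left against right, 2 calls became 264, 61, 137 and 0 under the same settings. The cause was not tested. The replicate numbers did not pair the SOD-CCI with the SOD-CT rats (r of deviations -0.0787 to 0.0484). With the replicate number as a block, 1 gene was called there and 1 of the 7 (Lss, log2FC 0.65) had an unadjusted p of 0.0389 (edgeR). In the fits of left or of contralateral ganglia, the block for replicate number changed no other call. Leaving out 1 library at a time gave 0 to 47 calls in SOD-CCI against SOD-CT (47 without FOD-CCI replicate 1), 0 to 43 in FOD-CCI against FOD-CT (43 without the same library), 0 to 471 and 0 to 137 within SOD-CCI and FOD-CCI rats (the upper counts without FOD-CCI replicate 1), and 0 to 17 in contralateral DRG, where the count of the 7 with an unadjusted p under 0.05 was 0 to 1 (both upper counts without FOD-CCI contralateral replicate 1). Within SOD-CCI rats the 19 calls became 0 without replicate 1, 0 without replicate 2 and 2 without replicate 3, and 55 without FOD-CCI replicate 3; within FOD-CCI rats the 2 calls became 0 without SOD-CCI replicate 2 or FOD-CCI replicate 3.

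Of the log2FC of the 7 genes under alternatives, 954 kept their sign and 117 turned it, none with an unadjusted p under 0.05. With DESeq2 size factors in edgeR, the sign turned for Fdps -0.022 (FOD-CT against SOD-CT) and Idi1 -0.018 (SOD-CCI left against right). Scaled by library totals alone, the sign turned for Hmgcs1 -0.027, Sqle -0.040 (FOD-CCI against FOD-CT), Cyp51 -0.041, Fdps -0.046, Sqle -0.037 (FOD-CCI against SOD-CCI), Idi1 0.077 (FOD-CT against SOD-CT), Fdps -0.15 (the interaction) and Sqle 0.0082 (SOD-CCI left against right). In the DESeq2 Wald test, the sign turned for Fdps -0.023 (FOD-CT against SOD-CT) and Idi1 -0.018 (SOD-CCI left against right). With no filter on low counts, the sign turned for Fdps -0.012 (FOD-CT against SOD-CT), Idi1 -0.025 (SOD-CCI left against right) and Cyp51 0.040 (FOD-CCI left against right). With the gene length trend removed, the sign turned for Cyp51 -0.064 (SOD-CCI against SOD-CT), Cyp51 0.0024 (FOD-CCI against FOD-CT), Fdps -0.13, Fdft1 0.055 (FOD-CCI against SOD-CCI), Hmgcs1 -0.0036 (FOD-CT against SOD-CT), Cyp51 0.066, Fdps -0.18 (the interaction) and Idi1 -0.022 (SOD-CCI left against right). With the replicate number as a block, the sign turned for Hmgcs1 -0.015, Sqle -0.040 (FOD-CCI against FOD-CT), Cyp51 -0.025, Fdps -0.098, Sqle -0.043 (FOD-CCI against SOD-CCI), Idi1 0.050 (FOD-CT against SOD-CT) and Fdps -0.17 (the interaction). With only the 2 groups compared, the sign turned for Sqle -0.0026 (FOD-CCI against FOD-CT). Without the 2 libraries with muscle transcripts, the sign turned for Cyp51 -0.029, Sqle -0.024 (SOD-CCI against SOD-CT), Cyp51 0.17 (FOD-CCI against FOD-CT), Hmgcs1 -0.11, Cyp51 -0.19, Fdps -0.15, Sqle -0.094 (FOD-CT against SOD-CT) and Cyp51 0.20, Sqle 0.10 (the interaction). Without the 3 libraries with cord transcripts, the sign turned for Hmgcs1 -0.030, Sqle -0.10 (FOD-CCI against FOD-CT), Idi1 0.18 (FOD-CT against SOD-CT), Fdps -0.042 (the interaction), Fdft1 -0.015, Idi1 0.14 (FOD-CCI left against right) and Fdps 0.17 (contralateral FOD against SOD). Leaving out 1 library at a time, the sign turned within these ranges: Cyp51 -0.050 to 0.16, Sqle -0.066 to 0.20, Idi1 -0.25 to 0.12 (SOD-CCI against SOD-CT); Sqle -0.16 to 0.091, Hmgcs1 -0.094 to 0.091, Cyp51 -0.20 to 0.16, Lss -0.41 to 0.18 (FOD-CCI against FOD-CT); Fdft1 -0.10 to 0.017, Cyp51 -0.073 to 0.11, Fdps -0.060 to 0.14, Sqle -0.075 to 0.15 (FOD-CCI against SOD-CCI); Hmgcs1 -0.060 to 0.16, Fdps -0.11 to 0.18, Sqle -0.013 to 0.23, Idi1 -0.20 to 0.23, Cyp51 -0.10 to 0.26, Lss -0.057 to 0.39 (FOD-CT against SOD-CT); Cyp51 -0.25 to 0.12, Sqle -0.21 to 0.066, Fdps -0.17 to 0.14 (the interaction); Idi1 -0.055 to 0.020 (SOD-CCI left against right); Cyp51 -0.11 to 0.087, Fdft1 -0.089 to 0.20, Idi1 -0.17 to 0.14, Hmgcs1 -0.076 to 0.14, Lss -0.20 to 0.21 (FOD-CCI left against right); Fdps -0.31 to 0.17, Sqle -0.25 to 0.0046 (contralateral FOD against SOD).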
